A study of Mus musculus with 4 samples.

Results

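Mitochondrial ribosomal protein genes, the nuclear genes for the protein part of the mitochondrion's own ribosome, were compared between immature dendritic cells (DC) and DC that natural killer T (NKT) cells had modulated. The members were all genes of the deposited table with a single gene symbol that starts with Mrpl or Mrps and a digit, 74 of 12393 genes. By name 47 belong to the large subunit (Mrpl) and 27 to the small subunit (Mrps). Each gene was represented by its brightest probe set over the 4 arrays.

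Total RNA of C57BL/6 bone marrow dendritic cells, antigen-presenting cells grown from mouse marrow, was measured on 4 Affymetrix mouse arrays. The control group was immature DC (2 arrays), and the other group was NKT-modulated DC (2 arrays). Per the design text, cells bearing CD11c, the product of Itgax, gave the RNA. All 4 samples share strain and cell type; no age, sex, dose or duration of the modulation is given in the sources used here. Nothing in the labels says that the arrays of a group came from separate cultures or animals, so the p-values reflect no more than array-to-array spread, possibly technical.

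The mitochondrial ribosome (mitoribosome) translates the few proteins encoded by mitochondrial DNA, all of them core subunits of the respiratory chain and ATP synthase. Its ribosomal RNAs are mitochondrial transcripts, whereas its proteins are made in the cytosol and imported. Part of these proteins have homologues in bacterial ribosomes; the rest were added in the mitochondrial lineage and cover the surface, the central protuberance and the exit of the polypeptide tunnel. DC are known to shift between oxidative phosphorylation and glycolysis with activation.

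Changes of the mitoribosomal protein genes between the groups were small. At an adjusted p under 0.05 (limma, Benjamini-Hochberg over all probe sets), Mrps16, Mrpl41 and Mrpl18 were lower in NKT-modulated DC and Mrpl39 was higher, and the other 70 members did not pass. Changes are NKT-modulated minus immature DC on the log2 scale after addition of 16 to each signal and quantile normalization, with the standard error (SE) of the fit. The 250 bases before the annotated start of these genes are shown because they are the members that changed, and because the motifs in them are set against all members further on; the promoter of Mrpl39 was added to those of the other 3 called members after its value was seen. The sequences are RefSeq's of the GRCm38.p6 build, written 5′ to 3′ on the gene's strand, which is the minus strand for all 4. Capitals mark each match on either strand to 1 of 7 short motifs: CCGGAAG for the ETS core, GCGCATGCG for the NRF1 core, AAGATGGC for the YY1 core, CACGTG for the E-box, CCAAT for the box of that name, GGGCGG for the GC box and TATAAA for the TATA box.

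Mrps16 encodes the homologue of bacterial S16, an early assembling protein of the small subunit. Its signals were 959 and 1501 in the immature DC arrays and 659 and 599 in the NKT-modulated DC arrays. Both NKT-modulated values lay below both immature values, and the immature arrays also differed from each other, by 0.47 on the normalized log2 scale. The change was -0.78 ± 0.17 (SE; limma, adjusted p = 0.035), and its 95% interval of -1.18 to -0.37 was the only one among the members that reached beyond 1 on the log2 scale. RefSeq lists a pair of starts for this gene. The window of the upstream one, not printed, holds a reverse CCAAT 47 bases and a GC box 27 bases before its start, and no ETS core. The window of the downstream one, chr14:20393491-20393740, holds a reverse ETS core 74 bases before the start, a reverse CCAAT 191 bases before it and a GC box 171 bases before it.
Mrps16: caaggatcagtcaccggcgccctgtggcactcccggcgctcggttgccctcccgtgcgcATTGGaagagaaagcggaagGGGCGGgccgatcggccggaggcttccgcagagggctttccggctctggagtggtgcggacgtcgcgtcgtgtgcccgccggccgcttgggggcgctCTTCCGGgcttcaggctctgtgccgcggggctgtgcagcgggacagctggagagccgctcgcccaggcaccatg

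Mrpl41 encodes a mitochondria-specific large-subunit protein that is also described as a partner of BCL2. Its signals were 1537 and 2351 in immature DC and 1177 and 1122 in NKT-modulated DC. The groups did not overlap, and the immature arrays differed from each other by 0.44 on the normalized log2 scale. The change was -0.63 ± 0.15 (SE; limma, adjusted p = 0.048). A further bright probe set of the gene gave -0.40 with an adjusted p of 0.14 in the limma fit. The window chr2:24975099-24975348 holds a reverse CCAAT 61 and 11 bases before the start.
Mrpl41: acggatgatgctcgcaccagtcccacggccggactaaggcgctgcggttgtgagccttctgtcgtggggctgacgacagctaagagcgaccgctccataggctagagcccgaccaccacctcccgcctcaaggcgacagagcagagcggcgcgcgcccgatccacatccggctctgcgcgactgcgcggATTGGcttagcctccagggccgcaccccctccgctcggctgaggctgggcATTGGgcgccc

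Mrpl18 encodes the L18 homologue of the central protuberance, where the mitoribosome carries a tRNA in place of the bacterial 5S rRNA. Its signals were 1496 and 1920 in immature DC and 1175 and 1121 in NKT-modulated DC, again without overlap. The change was -0.46 ± 0.10 (SE; limma, adjusted p = 0.034). The window chr17:12916092-12916341 holds an ETS core 240 bases before the start, a reverse GC box 137 bases before it and a reverse CCAAT 110 bases before it.
Mrpl18: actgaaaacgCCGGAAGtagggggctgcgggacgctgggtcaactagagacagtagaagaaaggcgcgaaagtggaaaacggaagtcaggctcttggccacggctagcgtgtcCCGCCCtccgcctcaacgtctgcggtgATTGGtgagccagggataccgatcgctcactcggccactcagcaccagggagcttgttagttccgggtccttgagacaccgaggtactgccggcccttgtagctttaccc

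Mrpl39 encodes a mitochondria-specific large-subunit protein related in sequence to threonyl-tRNA synthetase. Its signals were 2523 and 2514 in immature DC and 3238 and 3465 in NKT-modulated DC. Both NKT-modulated arrays lay above both immature arrays. The change was 0.43 ± 0.10 (SE; limma, adjusted p = 0.047), and a second probe set of the gene passed in the same direction, with a change of 0.48 (limma, adjusted p = 0.028). The window chr16:84735245-84735494 holds an NRF1 core matched on both strands 125 and 124 bases before the start and a CCAAT 223 bases before it.
Mrpl39: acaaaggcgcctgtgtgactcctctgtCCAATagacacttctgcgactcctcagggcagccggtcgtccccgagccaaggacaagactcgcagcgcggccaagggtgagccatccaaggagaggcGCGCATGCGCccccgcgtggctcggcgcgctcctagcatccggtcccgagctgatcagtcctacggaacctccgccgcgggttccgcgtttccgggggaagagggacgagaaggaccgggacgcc

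**Figure D1:**
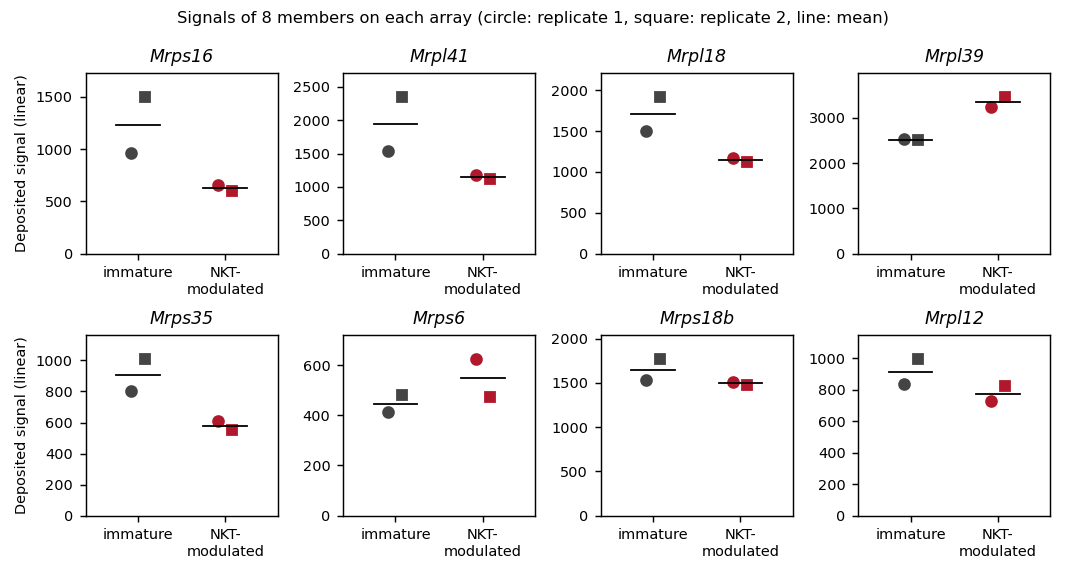
Deposited signal (linear scale, y axis from 0) of 8 members on each array, with a circle for replicate 1, a square for replicate 2 and a line for the group mean. Mrps16, Mrpl41 and Mrpl18 are lower on both NKT-modulated arrays, Mrpl39 is higher on both, and Mrps35, Mrps6, Mrps18b and Mrpl12 did not pass the test.

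The 4 calls each depended on the processing and on single arrays. Over all genes the calls also fell in some of these fits. Without the intensity trend 3.1% of genes were called higher and 2.2% lower, in place of 5.99% and 6.9%. Each fit that left out an array also had fewer calls over all genes. The losses below are therefore not particular to these 4 genes. Mrpl39 was not called in any of the 4 fits that left out an array, nor with a pseudocount of 64, without any normalization or without the intensity trend. The calls lower were lost for all 3 genes without immature DC replicate 2, without either NKT-modulated array or without the trend, and 4 members passed without immature DC replicate 1. Under cyclic loess or median centring 1 member was called lower, Mrps16. Over the 15 settings tried for a single gene, the adjusted p (limma) ran from 0.011 to 0.14 for Mrps16, 0.013 to 0.19 for Mrpl41, 0.020 to 0.15 for Mrpl18 and 0.012 to 0.20 for Mrpl39. The sign of these 4 changes was the same in all of them.

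As a group the members moved in a narrow band. Of the 74 members 1 was called higher (1.35%), against 5.99% of the 12393 genes (742), and 3 were called lower (4.05%), against 6.9% of genes (855). Either way the count was 4 members (5.41%), against 12.9% of genes. Without further normalization the calls over all genes split 559 higher and 1027 lower, in place of 742 and 855. At an unadjusted p under 0.05 the count was 19 members (25.7%), against 28.2% of genes. No member reached a change of 1 on the log2 scale in either direction, which 6.74% of genes did. The standard deviation (SD) of the changes was 0.22 over the members and 0.63 over all genes. The median SE was 0.11 for members and 0.19 for all genes. The mean signal of a member over the arrays ran from 145 to 3785. Its median was 871, against 214 for all genes, so these shares compare bright members with many dimmer genes. With only probe sets of mean signal of at least 100, 11.63% of 7423 genes were called higher and 15.83% lower. Of the 74 members 1 was then higher and 7 were lower. For 73 members the 95% interval of the change lay within 1 of 0, and for 45 within 0.5.

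More members had a negative than a positive change. The median change was -0.09 over the members, with quartiles of -0.24 and 0.01, and -0.04 over all genes. Of the members 55 had a negative change (74.3%, against 55.1% of all genes) and 19 a positive one. On the normalized scale both NKT-modulated arrays lay below both immature arrays for 32 members (43.2%), against 32.5% of genes, and above them for 10 members (13.5%), against 23.8% of genes. The distance of the members' median from that of all genes was -0.05. It became 0.0032 without immature DC replicate 2 and -0.08 without immature DC replicate 1. With only probe sets of mean signal of at least 100, which kept all 74 members, the median of all genes was -0.072. The distance was then -0.0185. The median of all genes itself moved with the scaling, from -0.12 without normalization to 0.06 with median centring. The members' median lay 0.13 below it in both of these. Median centring shifts all genes of an array equally, so this distance could not differ between them and counts as a single result.

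**Figure D2:**
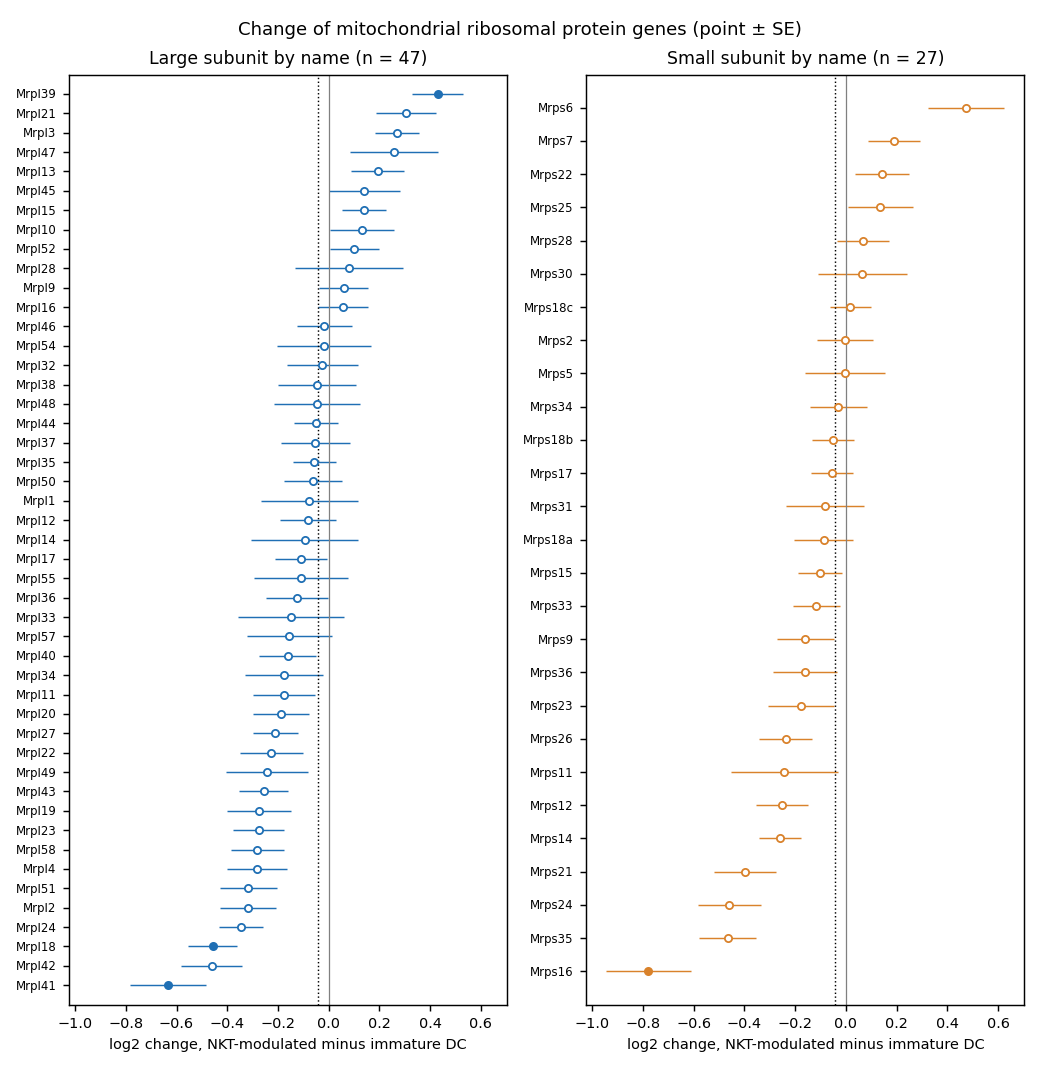
Change (x axis, log2, NKT-modulated minus immature DC) of each member with its SE as a bar, large subunit on the left and small subunit on the right, sorted by change. Filled points are the 4 members that passed an adjusted p of 0.05; the dotted line is the median of all genes, -0.04.

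The members with both NKT-modulated arrays above were Mrps6, Mrpl39, Mrpl21, Mrpl3, Mrpl47, Mrpl13, Mrps7, Mrps22, Mrpl15 and Mrps25. Those with both arrays below, beside Mrps16, Mrpl41 and Mrpl18, were Mrps35, Mrpl42, Mrps24, Mrps21, Mrpl24, Mrpl2, Mrpl51, Mrpl4, Mrpl58, Mrpl23, Mrpl19, Mrps14, Mrpl43, Mrps12, Mrps11, Mrpl49, Mrps26, Mrpl22, Mrpl27, Mrpl20, Mrps23, Mrpl40, Mrps9, Mrps33, Mrps15, Mrps17, Mrpl37, Mrps18b and Mrpl44. The other 32 overlapped between the groups.

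Large and small subunit genes had nearly equal median changes. The median change was -0.0938 for the 47 large-subunit genes, of which 1 was called higher (2.1%) and 2 lower (4.3%). It was -0.0873 for the 27 small-subunit genes, of which 0 were called higher and 1 lower (3.7%). Over all genes 5.99% were called higher and 6.9% lower. At an unadjusted p under 0.05 there were 12 large-subunit and 7 small-subunit genes, 25.5% and 25.9% of each, against 28.2% of all genes. The difference of the medians, large minus small, was -0.0065, and leaving out single arrays moved it between -0.104 and 0.064, so its sign rests on which arrays enter. Both NKT-modulated arrays lay below for 18 large-subunit genes (38.3%) and 14 small-subunit genes (51.9%), against 32.5% of all genes, and above for 6 (12.8%) and 4 (14.8%), against 23.8%. The difference in these shares between the subunits was not tested. The range of changes was -0.63 to 0.43 in the large subunit and -0.78 to 0.47 in the small subunit.

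Some names differ from the place of the protein in the ribosome. Mrps18a and Mrps30 are found in the large subunit of the assembled mitoribosome, and Mrps36 is a component of the alpha-ketoglutarate dehydrogenase complex. Sorted by place, the median was -0.0873 for 49 large-subunit genes and -0.0914 for 24 small-subunit genes. Signals of Mrps30 were 666 and 575 in immature DC and 635 and 508 in NKT-modulated DC, which overlap, with a change of 0.07 ± 0.17 (SE; limma, adjusted p = 0.87). Its sign turned to -0.12 without further normalization. Mrps36 had signals of 823 and 772 against 630 and 638, which did not overlap as deposited but did after normalization, with a change of -0.16 ± 0.13 (SE; limma, adjusted p = 0.51).

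Members were also sorted by origin. The 46 members with a bacterial homologue had a median change of -0.0972, with 0 called higher and 2 lower (4.35%). The 28 mitochondria-specific members had a median of -0.0719, with 1 called each way (3.57%). Over all genes 5.99% were called higher and 6.9% lower, and the difference between the origins was not tested.

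In the small subunit, proteins of the decoding region and of the mRNA channel include Mrps12, the S12 homologue at the decoding site, and Mrps24, the S3 homologue at the mRNA entry. Mrps12 changed by -0.25 ± 0.10 (SE; limma, adjusted p = 0.19) and Mrps24 by -0.46 ± 0.12 (SE; limma, adjusted p = 0.070), values that did not pass. Mrps35, a mitochondria-specific protein, missed the threshold by the smallest margin, with signals of 802 and 1011 against 609 and 549 and a change of -0.47 ± 0.11 (SE; limma, adjusted p = 0.0502). Its groups did not overlap. Mrps21, the S21 homologue, and Mrps14, the S14 homologue, had changes of -0.40 and -0.26 (limma, adjusted p = 0.10 and 0.11).

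The largest positive change of all members did not pass the test. Mrps6, the S6 homologue that pairs with S18 on the platform of the small subunit, had signals of 414 and 479 in immature DC and 625 and 472 in NKT-modulated DC. Only the first NKT-modulated array stood clearly above the others in deposited signal. The change was 0.47 ± 0.15 (SE; limma, adjusted p = 0.11), with a 95% interval of 0.11 to 0.84. Mrps7 and Mrps22, a homologue of bacterial S7 and a mitochondria-specific protein, changed by 0.19 and 0.14 (limma, adjusted p = 0.33 and 0.48).

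The S18 family, a single protein in most bacteria, has 3 paralogs in mammals. Mrps18b had signals of 1528 and 1774 in immature DC and 1513 and 1481 in NKT-modulated DC, a change of -0.05 ± 0.08 (SE). Mrps18c had signals of 1650 and 1907 against 1739 and 1663, which overlap, a change of 0.02 ± 0.08 (SE). Mrps18a had signals of 735 and 890 against 639 and 723, a change of -0.09 ± 0.12 (SE). None of these 3 passed (limma, adjusted p = 0.77, 0.93 and 0.72), and their 95% intervals lay between -0.37 and 0.21. Each of the 3 signs turned under at least 1 alternative: Mrps18a without NKT-modulated DC replicate 1, Mrps18b with cyclic loess or median centring, and Mrps18c without normalization.

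In the large subunit, the stalk recruits translation factors and is built of Mrpl10, Mrpl11 at its base and Mrpl12, which also binds the mitochondrial RNA polymerase. Mrpl12 had signals of 833 and 996 in immature DC and 727 and 822 in NKT-modulated DC, a change of -0.08 ± 0.11 (SE). Mrpl11 had 1498 and 2108 against 1481 and 1500, a change of -0.18 ± 0.12 (SE), with immature DC replicate 2 apart from the other arrays. Mrpl10 had 1278 and 1200 against 1193 and 1322, a change of 0.13 ± 0.13 (SE). The normalized values of the groups overlapped for all 3, and none passed (limma, adjusted p = 0.73, 0.45 and 0.60). The signs of Mrpl12 and Mrpl10 turned when NKT-modulated DC replicate 1 and immature DC replicate 2, respectively, were left out.

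Around the peptidyl transferase centre and the tunnel, members differed in sign without passing the test. Mrpl2 and Mrpl4, homologues of L2 and L4, changed by -0.32 ± 0.11 and -0.28 ± 0.12 (SE; limma, adjusted p = 0.13 and 0.21). Mrpl3, the L3 homologue, changed by 0.27 ± 0.09 (SE; limma, adjusted p = 0.12), with signals of 1458 and 1546 against 1767 and 1654. At the tunnel exit, Mrpl24 changed by -0.35 ± 0.09 (SE; limma, adjusted p = 0.056) and Mrpl23 by -0.28 ± 0.10 (SE; limma, adjusted p = 0.15). Mrpl22 and Mrpl17, of the same region, had -0.23 and -0.11, whereas Mrpl47 had 0.26 and Mrpl45, which anchors the ribosome to the inner membrane, had 0.14.

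Of the central protuberance, Mrpl18 was called and its partners were not. Mrpl38, Mrpl40, Mrpl46 and Mrpl48 changed by -0.05, -0.16, -0.02 and -0.05. Among other mitochondria-specific proteins, Mrpl42 had -0.46 ± 0.12 (SE; limma, adjusted p = 0.062) and Mrpl51 had -0.32 ± 0.11 (SE; limma, adjusted p = 0.14). Mrpl58, a peptidyl-tRNA hydrolase built into the ribosome that can release stalled chains, had -0.28 ± 0.10 (SE; limma, adjusted p = 0.16). Mrpl44, which has the fold of a ribonuclease III, changed by -0.05 ± 0.09 (SE), and Mrpl32, whose maturation by the m-AAA protease is needed for ribosome assembly, by -0.02 ± 0.14 (SE).

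The members' lean was not the same on both arrays of a group. The median deviation of a member from its own mean over the 4 arrays was 0.01 and 0.08 in immature DC replicates 1 and 2, and -0.04 and -0.06 in NKT-modulated DC replicates 1 and 2. For all genes it was 0.03, 0.02, -0.03 and -0.02. Immature DC replicate 1 thus lay below the level of all genes and replicate 2 above it. Between arrays of 1 group, the median difference of the members (replicate 2 minus replicate 1) was 0.07 in immature DC and -0.05 in NKT-modulated DC, beside the -0.09 between the groups. In deposited signal the members' medians were 903 and 1019 in immature DC and 816 and 755 in NKT-modulated DC, and those of all genes were 215 and 245 against 192 and 184.

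**Figure D3:**
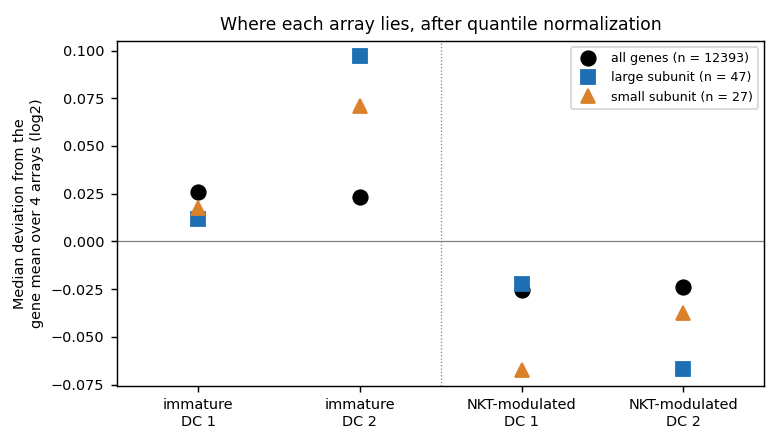
Median deviation (y axis, log2, after quantile normalization) of large-subunit genes, small-subunit genes and all genes from each gene's mean over the 4 arrays, by array (x axis). Both subunits lie highest on immature DC replicate 2 and below 0 on both NKT-modulated arrays, by at most 0.07.

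Probe sets of 1 gene often differed in sign at these sizes of change. The 74 members had 127 probe sets with a single symbol, and 33 members had more than 1. Of the 53 probe sets that were not the brightest of their gene, 30 shared its sign; among the 31 of these with a mean signal of at least 100, 20 did, and the median distance between the changes was 0.16. Only 2 of the 53 were called, that of Mrpl39 and 1 of Mrpl28, the L28 homologue. The called probe set of Mrpl28 changed by -0.51 (limma, adjusted p = 0.035) and a further one by -0.48, whereas the brightest gave 0.08 ± 0.21 (SE; limma, adjusted p = 0.87). The brightest and the called one both have the suffix that Affymetrix gives to probe sets that may bind other transcripts.

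A sign split between the probe sets of a gene was found for 18 members. These were Mrpl1, Mrpl9, Mrpl11, Mrpl15, Mrpl19, Mrpl21, Mrpl28, Mrpl33, Mrpl35, Mrpl38, Mrpl41, Mrpl42, Mrpl44, Mrpl51, Mrps2, Mrps9, Mrps14 and Mrps25. For Mrps14 the brightest gave -0.26 and the other 0.06, and for Mrps9 the brightest gave -0.16 and the next 0.21. For Mrpl41, Mrpl42 and Mrpl51 the probe sets of opposite sign were dim ones, with mean signals of 4.48, 19.4 and 68.5. Probe sets that name Mrpl30, Mrpl53 or Mrps34 together with a second gene were left out by the rule on symbols. They changed by -0.19, -0.20 and -0.33 (limma, adjusted p = 0.46, 0.37 and 0.27).

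Lists of genes that work with the mitoribosome, from proteins with other names to import, held 0 or 1 called gene each, against 12.9% of all genes called and 28.2% at an unadjusted p under 0.05. Of the 4 mitoribosomal proteins that carry other names, 0 were called: Gadd45gip1, a large-subunit protein, changed by -0.52 ± 0.21 (SE; limma, adjusted p = 0.18), and Dap3, a GTP-binding small-subunit protein, Ptcd3 and Chchd1 by 0.13, -0.13 and -0.19. At an unadjusted p under 0.05 there was 1 of the 4. Of 9 translation factors and partners 0 were called and 1 had an unadjusted p under 0.05, Mtif2, the initiation factor, at -0.45 ± 0.15 (SE; limma, adjusted p = 0.13). Tufm, the elongation factor Tu of mitochondria, changed by 0.03 and Lrpprc, which stabilises mitochondrial mRNA, by 0.10.

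Of 21 genes for mitoribosome assembly and rRNA modification 0 were higher and 1 was lower, with a median of -0.15. The lower gene was Ngrn, which is needed for the large-subunit rRNA, with signals of 487 and 710 in immature DC and 301 on each NKT-modulated array. Its change was -0.75 ± 0.16 (SE; limma, adjusted p = 0.034). Of 13 aminoacyl-tRNA synthetases and amidotransferase subunits of mitochondria 1 was higher and 0 lower, with a median of 0.01. The higher one was Kars, which serves both the cytosol and mitochondria, with signals of 1317 and 1431 against 1877 and 1956 and a change of 0.56 ± 0.09 (SE; limma, adjusted p = 0.012). The call of Kars was lost without the intensity trend (adjusted p = 0.098), without immature DC replicate 2 (0.054) and without NKT-modulated DC replicate 1 (0.063) or 2 (0.086), and that of Ngrn in the same 4 fits (0.10 to 0.15).

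Of 25 genes for mitochondrial DNA, its transcription and nuclear regulators of mitochondrial genes 1 was higher and 0 lower, with a median of -0.03. Gabpb1, a subunit of the ETS family factor GABP (NRF2), had signals of 225 and 321 in immature DC and 745 and 656 in NKT-modulated DC. The groups did not overlap, with a change of 1.52 ± 0.15 (SE; limma, adjusted p = 0.0027). Its DNA-binding partner Gabpa changed by -0.16, Nrf1 by 0.59, Yy1 by -0.11 and Tfam by -0.35 (limma, adjusted p = 0.39, 0.14, 0.46 and 0.082), none past the threshold. Of 27 import and chaperone genes 0 were called and 7 (25.9%) had an unadjusted p under 0.05, with a median of 0.05; Timm23, the channel of the inner membrane, had 0.24 ± 0.07 (SE; limma, adjusted p = 0.099).

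Oxidative phosphorylation subunits, which include the partners of the proteins the mitoribosome makes, had 0 genes higher and 7 lower of 78 (8.97%, against 6.9% of all genes), a median of -0.14 and 62 negative changes (79.5%, against 55.1%). Their median signal was 2851, against 214 for all genes, so these shares compare bright genes with many dimmer ones. With only probe sets of mean signal of at least 100, 15.83% of 7423 genes were called lower. Cox7a2l, Ndufa2 and Sdhd changed by -0.57, -0.43 and -0.46 (limma, adjusted p = 0.0085, 0.019 and 0.028). Of 15 alternatives the call was lost in 4 for Cox7a2l, in 8 for Ndufa2, which include every array left out, and in 6 for Sdhd; median centring and the fit without NKT-modulated DC replicate 1 ended all 3, with adjusted p from 0.055 to 0.15. Of 48 cytosolic ribosomal protein genes 0 were called, 3 had an unadjusted p under 0.05 and the median was -0.04, that of all genes. The mean signal of these 48 had a median of 10020 and reached 17750, and the highest of all genes was 18050. Whether signals so near the top of the range can show a change was not tested. Rpl39, a dimmer one with a mean signal of 317, had 0.46 ± 0.15 (SE; limma, adjusted p = 0.11). No test was made of the distance between these groups.

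**Figure D4:**
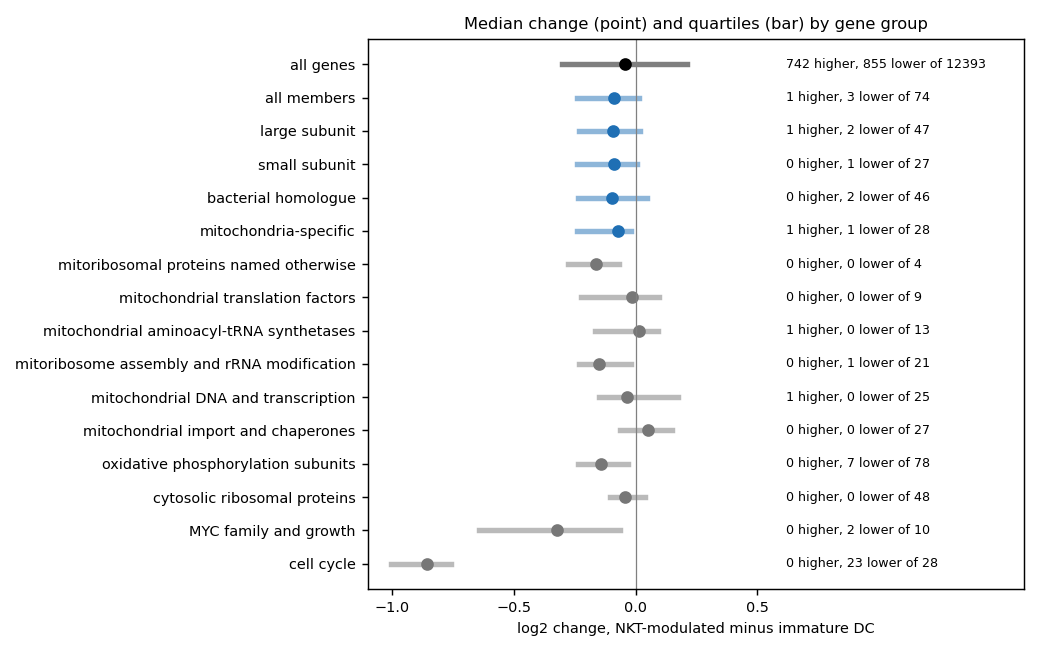
Median change (point) and quartiles (bar) of each gene group (x axis, log2, NKT-modulated minus immature DC), with the number of genes higher and lower at an adjusted p under 0.05 at the right. The medians of both subunits lie at -0.09, between that of all genes (-0.04) and that of oxidative phosphorylation subunits (-0.14), and far from that of cell cycle genes (-0.86).

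Cell cycle genes and markers of other cells moved with the groups, in RNA that the design text attributes to cells bearing CD11c. Of 28 cell cycle genes 23 were lower and 0 higher, with a median of -0.86; Mcm7 and Mcm3, of the replicative helicase, and Cdt1 changed by -1.32, -0.84 and -0.89 (limma, adjusted p = 0.00072, 0.0029 and 0.0027), and Mcm3 by -0.19 (limma, adjusted p = 0.45) when all its probe sets were averaged. Of 10 genes of the MYC family and growth control 2 were lower and 0 higher, Mycl by -2.40 and Mxd4 by -0.96 (limma, adjusted p = 0.0095 and 0.040). Mxd4 was not called with any single array left out (adjusted p = 0.11 to 0.22) and had 0.37 in its brightest probe set without a suffix, and Mycl had an adjusted p of 0.055 without immature DC replicate 1. Of 17 T and NKT cell markers 10 were higher and 0 lower, and their summed signal was 2035 and 1943 in immature DC and 10190 and 7968 in NKT-modulated DC. Within these sums Il2ra made up 806 and 700 against 2470 and 1920, and Zap70 568 and 469 against 622 and 479. Cd3d, Cd3e, Cd3g and Tbx21 were near 0 in immature DC, with signals from 1.27 to 19.1, and between 200 and 1401 in NKT-modulated DC. Not called were Cd4, Cd2, Zap70, Cd5 and Zbtb16, at 0.90, 0.42, 0.26, 0.23 and 0.13. Cd8a and Cd8b1, at -0.31 and -0.32, were not called either. Of 7 NK cell markers 2 were higher, Gzmb and Il2rb, and Klrd1 was lower, by -1.91; their summed signal was 839 and 876 against 2947 and 2509, of which Gzmb made up 29.1 and 7.69 against 2215 and 1827, and Ncr1 was near 0 on all arrays. Of 5 B cell markers 1 was higher, Cd79b, with signals of 35.3 and 32.0 against 270.1 and 209.8 in sums of 241 and 252 against 504 and 437. Of 8 neutrophil markers 3 were higher and 0 lower, in sums of 944 and 1135 against 2059 and 1844. Of 7 macrophage markers Mertk was higher, by 1.09, and C1qa, C1qb and Fcgr1 were lower, by -1.15, -1.09 and -0.54, whereas the sums, made up largely of Csf1r and Cd68, were 25470 and 24870 against 24600 and 23730. All 13 DC markers were measured and 3 were higher and 1 lower; Itgax had signals of 5442 and 5537 against 5253 and 4643. The part of other cells and of the lower cell cycle genes in the members' values was not tested, and in these bulk samples fewer cells of a type and less RNA per cell cannot be told apart.

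Promoter windows, from 250 bases before to 50 bases after a RefSeq start, were found for 65 members in 71 windows. An ETS core was present in 24 of the 65 (36.9%), against 9.93% of the 27025 genes of the table. A YY1 core was present in 11 (16.9%), against 3.19%, and an NRF1 core in 7 (10.8%), against 1.95%. A GC box was present in 34 (52.3%, against 38.2%), a CCAAT in 25 (38.5%, against 41.1%), an E-box in 5 (7.69%, against 8.09%) and TATAAA in 5 (7.69%, against 15.7%). A match was counted on either strand and in any window of a gene, so Mrps16 counts for the ETS core through its downstream start alone. No motif contains another, and a match is a description of letters, not a binding site.

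**Figure D5:**
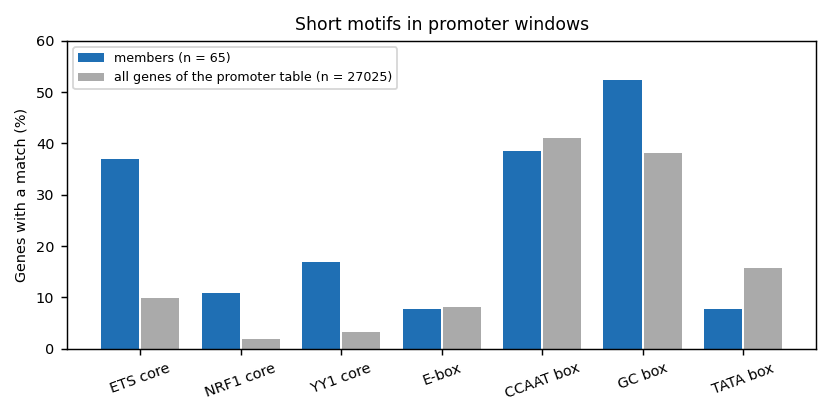
Percentage of genes (y axis) with a match to each of 7 short motifs in the 300-base promoter window, for 65 members and for all 27025 genes of the promoter table. ETS, NRF1 and YY1 cores were found in a larger share of member windows, and TATAAA in a smaller share.

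The changes were set beside these motifs as a description, and no link between a motif and a change was tested. Over all genes 5.99% were called higher and 6.9% lower, 12.9% either way. The calls per motif are too few to be told apart from these shares. The 24 members with an ETS core had a median change of -0.17, with 0 called higher and 2 lower, and the 41 without it had -0.08, with 1 called each way. The 7 members with an NRF1 core, among them Mrpl39, Mrpl10 and Mrps18b, had a median of -0.02, and the 58 without it had -0.11. All 4 called members have a CCAAT in their window, as printed with their values, among 25 members that do; their median was -0.12, and that of the 40 without it was -0.09. The 11 members with a YY1 core, which include Mrps24 and Mrpl42, had a median of -0.12 and 0 calls.

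Some mitoribosomal protein genes start back to back with another gene, and the share of all genes that do is not given here. A start on the opposite strand, pointing away and within 300 bases, was listed for 19 members, and 14 of these neighbours were measured. Of the 14 neighbours 0 were called higher and 1 lower, against 5.99% and 6.9% of all genes. The lower one was Klc4, a kinesin light chain, at -0.85 (limma, adjusted p = 0.020), whose partner Mrpl2 had -0.32. Tcp1, a subunit of the cytosolic chaperonin that shares its start region with Mrpl18, changed by 0.06 (limma, adjusted p = 0.72), beside the -0.46 of Mrpl18. Mrpl46 and Mrps11, members of opposite subunits that start back to back, are each counted as the neighbour of the other. They changed by -0.02 and -0.24, and neither passed. Sars2, the mitochondrial seryl-tRNA synthetase beside Mrps12, changed by 0.58 (limma, adjusted p = 0.31) and Mrps12 by -0.25.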

How the data were processed

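RNA of 2 immature and 2 NKT-modulated DC samples was measured on 4 arrays. The deposited values are intensities on a linear scale, 1 per probe set and array. GCOS, the Affymetrix software, is named in the submitters' processing notes; which version, summary algorithm or scaling the authors used is not stated there. Labels and design text disagree on the number of amplification cycles, and the array named in the design text holds more than the 22690 probe sets analysed here.

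After 64 control probe sets were left out, log2(signal + 16) values of 22626 probe sets were quantile normalized, since array quartiles differed by up to 0.27, over a limit of 0.1. The fold scale understates changes of dim probe sets, a signal depends on the probe set as well as on the transcript, and the number of arrays limits the precision. Median signals per array were 129 to 158. Symbols came from the platform annotation (20380 probe sets with 1 symbol, 691 with several, 1555 with none); updating 20351 of them by gene ID through RefSeq's GRCm38.p6 gene table changed 0 members. Neighbouring starts and promoter sequences are from the same assembly.

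The comparison used limma 3.58.1 under R 4.3.3 (lmFit, eBayes with an intensity trend, two-sided; 2 residual and 4.13 prior degrees of freedom; 95% intervals with 6.13), with Benjamini-Hochberg adjustment over all 22626 probe sets and a threshold of 0.05. The limma fit alone was tested on simulated log2 values drawn from the fitted model. Normalization and probe set choice were not part of that test. Recovery was required only for changes larger than that of any member. Counts and tables used Python 3.11.15 and pandas 2.3.3. The members, gene lists, motifs and tests were chosen with earlier results of these data known. Named are all called members, the S18 paralogs, the stalk proteins, Mrps30 and Mrps36, members whose probe sets differ in sign or call, up to 3 called genes of each list (1 where none was called), and, for their role or nearness to the threshold, further members chosen after their values were seen. Alternatives covered the pseudocount, normalization, filter, variance model, probe set choice, adjustment, threshold, symbols, subunit by place and each array left out.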

Additional observations from a re-analysis of the deposited data

How the results depend on the processing

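No paired analysis was possible because the labels give no replicate number that groups share. Members called higher numbered 0 in place of 1 with a pseudocount of 64, without further normalization, without the intensity trend and at a threshold of 0.001, and ranged from 0 to 0 with single arrays left out. Members called lower numbered 1 with cyclic loess and with median centring, 7 with only probe sets of mean signal of at least 100, 5 with adjustment over 1 probe set per gene, and 0 without the intensity trend and at a threshold of 0.001, in place of 3; with single arrays left out they ranged from 0 to 4. The 7 of 74 members lower under the signal filter stand beside 15.83% of the 7423 genes it kept. The 5 of 74 with adjustment over 1 probe set per gene stand beside 7.625% of 12393 genes. Of all genes 3.099% were called higher and 2.195% lower without the intensity trend, and 1.057% and 0.1775% at a threshold of 0.001. With a pseudocount of 64 and without further normalization 5.681% and 4.511% were called higher. With cyclic loess and median centring 5.769% and 5.794% were called lower. The members' median change was -0.25 without further normalization and -0.0335 with cyclic loess, in place of -0.0905, and -0.122 to -0.0435 with single arrays left out. The large minus small subunit median ranged from -0.104 to 0.064 with single arrays left out. Signs turned for Mrps18b (0.0093 with cyclic loess, 0.043 with median centring), Mrps18c (-0.0604 without further normalization) and Mrps30 (-0.12 without further normalization), and, with single arrays left out, for Mrps18a (-0.185 to 0.011), Mrpl10 (-0.0071 to 0.271), Mrpl12 (-0.179 to 0.017) and Mrps30 (-0.141 to 0.27). Mxd4 turned to 0.37 when probe sets with a suffix were passed over. With 1 array in a group, that array is assumed to vary like the other group. The cause of these shifts was not tested.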
